A study of Mus musculus with 2 samples.

Results

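Lhx1, Foxa2, Gsc, Sox17, Cer1 and Gata6 are 6 genes of the anterior primitive streak, the endoderm and the embryonic organiser. They were taken by symbol from the gene list of a mouse single-cell RNA library, where they are 6 of 33696 measured genes (Lhx1, ENSMUSG00000018698; Foxa2, ENSMUSG00000037025; Gsc, ENSMUSG00000021095; Sox17, ENSMUSG00000025902; Cer1, ENSMUSG00000038192; Gata6, ENSMUSG00000005836). The study profiled embryoid bodies on day 2, which are aggregates of differentiating cells, and the epiblast stem cells they were made from, a pluripotent cell type of the primed state. Both samples carry the line name Delmix, the stem cells are labelled as untreated, and each group is 1 sample. The counts lie in 1 pooled matrix whose cell tags match neither sample, so no value below belongs to embryoid bodies or to epiblast stem cells, and the groups could not be compared. The values describe 1 library, with no test between groups of cells.

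In the gastrulating mouse embryo, graded Nodal and Wnt signals pattern the primitive streak, and its anterior end forms the node, the notochord and the definitive endoderm. Lhx1 (a LIM homeodomain factor), Gsc (goosecoid, a homeodomain repressor) and Foxa2 (a forkhead pioneer factor) are known from the anterior streak and its organiser. Sox17 (an HMG-box factor) and Gata6 (a zinc finger factor) act in endoderm, and also in endothelium and in heart or lateral mesoderm. Cer1 is a secreted antagonist of Nodal and BMP made by anterior endoderm.

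The promoters of 3 of the genes are shown because the cells with Lhx1 held Gsc more often than other streak cells, while Cer1 was found in few cells. Each sequence is the 250 bases before the start site annotated by RefSeq on build GRCm38.p6, 5′ to 3′ on the gene's own strand. The Lhx1 window is chr11:84525535-84525784 (minus strand), that of Gsc is chr12:104473237-104473486 (minus strand) and that of Cer1 is chr4:82885152-82885401 (minus strand). Capitals mark matches to motifs.
Lhx1: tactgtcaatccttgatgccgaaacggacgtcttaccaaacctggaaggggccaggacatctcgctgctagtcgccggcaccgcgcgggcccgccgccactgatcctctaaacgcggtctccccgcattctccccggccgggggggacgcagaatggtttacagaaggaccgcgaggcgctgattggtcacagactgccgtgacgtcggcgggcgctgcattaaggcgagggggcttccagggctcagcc
Gsc: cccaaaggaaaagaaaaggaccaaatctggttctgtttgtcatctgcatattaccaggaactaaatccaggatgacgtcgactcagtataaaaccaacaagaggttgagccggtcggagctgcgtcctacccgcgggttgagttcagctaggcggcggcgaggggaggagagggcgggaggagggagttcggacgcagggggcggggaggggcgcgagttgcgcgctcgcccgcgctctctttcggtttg
Cer1: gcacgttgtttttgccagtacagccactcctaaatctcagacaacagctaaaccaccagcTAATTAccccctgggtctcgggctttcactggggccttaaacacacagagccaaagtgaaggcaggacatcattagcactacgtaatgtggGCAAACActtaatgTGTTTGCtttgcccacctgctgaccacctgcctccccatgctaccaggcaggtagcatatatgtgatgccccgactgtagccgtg
The motifs searched on both strands were TAATTA (a LIM homeodomain core), then TAATCC (the type bound by Gsc), TGTTTNC (forkhead), AACAAT (for SOX factors) and AGATAA (the motif of GATA factors). The Cer1 window held TAATTA, which reads the same on both strands, and 1 forkhead match on each strand, GCAAACA at position -99 and TGTTTGC at position -85 from the start site. TAATTA lies in 4.84% of 32851 mouse promoter windows of this length and TGTTTNC in 17.8%, so neither match is rare. The Lhx1 and Gsc windows held none of the 5 motifs, which says only that these letters are not in these windows.

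The library held 16841 kept cells of 21593 called ones, with a median of 6473 UMIs (unique transcript counts) per cell, in 12 clusters. The 6 genes were left out of the clustering. Levels are CPM, the gene's UMIs summed over a group of cells per 1000000 UMIs of those cells. Intervals are 95% intervals, exact Poisson for levels and exact binomial for shares of cells, and cover counting error only. Scrublet called 12.7% of kept cells doublets, droplets that look like a mixture of 2 cells, and they were kept unless stated. Cluster 7 is called primitive streak and mesoderm-like here. It was chosen as the cluster of at least 100 cells with the highest summed level of Mixl1, Eomes and T. These markers were thus high there by the choice. They were at 90.2, 190 and 127 CPM, against 0.833, 12.2 and 16.1 CPM in all other kept cells.

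All 6 genes were scarce. Lhx1 had 615 UMIs in 289 cells, Gata6 had 396 in 308 cells and Gsc had 188 in 160 cells. Foxa2 had 157 UMIs in 116 cells, Sox17 had 61 in 47 cells and Cer1 had 17 in 10 cells. At least 1 of the 6 was found in 770 cells (4.57%).
How the UMIs were packed into cells set Lhx1 apart from Gsc and Gata6. Cells with at least 3 UMIs of the gene held 56.3% of all Lhx1 UMIs, with up to 17 in a cell. Such cells held 16.7% of Gata6 UMIs and 10.1% of Gsc UMIs, with at most 5 and 4 in a cell. Foxa2 reached 10 UMIs, Sox17 9 and Cer1 4 in single cells. In 72027 cell-free droplets (uncalled barcodes of 150 to 300 UMIs) the levels were 2.88 CPM for Lhx1, 2.43 for Gata6, 1.02 for Gsc, 0.576 for Sox17, 0.512 for Foxa2 and 0.128 for Cer1. Lhx1 lay below its droplet level in 8 of the 12 clusters and Gata6 in 10.

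Most UMIs of Lhx1, Gata6 and Cer1 lay in the 699 cells of the streak and mesoderm-like cluster, which are 4.15% of kept cells. It held 75.9% of Lhx1 UMIs, 65.9% of Gata6 UMIs and 76.5% of Cer1 UMIs, 50.5% of Gsc UMIs, 41.0% of Sox17 UMIs and 18.5% of Foxa2 UMIs. Lhx1 was at 98.7 CPM there (89.9 to 108), against 1.27 CPM in all other kept cells. Gata6 was at 55.1 CPM (48.6 to 62.2), against 1.16 CPM. Gsc was at 20.1 CPM (16.2 to 24.5), against 0.799 CPM.
These 3 of the 6 genes were higher in this cluster, where higher or lower means at least 2-fold (with 1 CPM added to both sides) and at least 20 CPM on the higher side. The same held for 1.63% of 26873 genes with a UMI. Gsc lay just over the minimum of 20 CPM and fell under it in 3 of 12 other settings, each of which clustered the cells anew. The 12 include changes of the pseudocount and of the CPM minimum, which leave its level unchanged. Foxa2 was at 6.13 CPM (4.10 to 8.80), against 1.10 CPM, and Sox17 was at 5.28 CPM (3.42 to 7.80), against 0.309 CPM. Cer1 was at 2.75 CPM (1.46 to 4.70), against 0.0344 CPM. These intervals do not reach the level of the other cells, but the levels are under 20 CPM. With called doublets left out and the cells clustered anew, the cluster held 1 Cer1 UMI, at 0.345 CPM, against 0.0627 CPM, and 7 Sox17 UMIs, at 2.42 CPM, against 0.366 CPM, so the higher level of Cer1 there rests on 1 UMI in that setting. Foxa2 was then at 3.45 CPM, from 10 UMIs, against 1.20 CPM. Lhx1, Gata6 and Gsc were at 130, 68.0 and 22.1 CPM, against 1.38, 1.06 and 0.868 CPM. Before the new clustering, the cells of cluster 7 that were not called doublets held 5 Cer1, 9 Sox17 and 23 Foxa2 UMIs. The new clustering thus changed these counts too. In the main clustering, called doublets included, the median log2 ratio of the 6 genes was 2.91, against 0.01 over all genes.

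**Figure D1:**
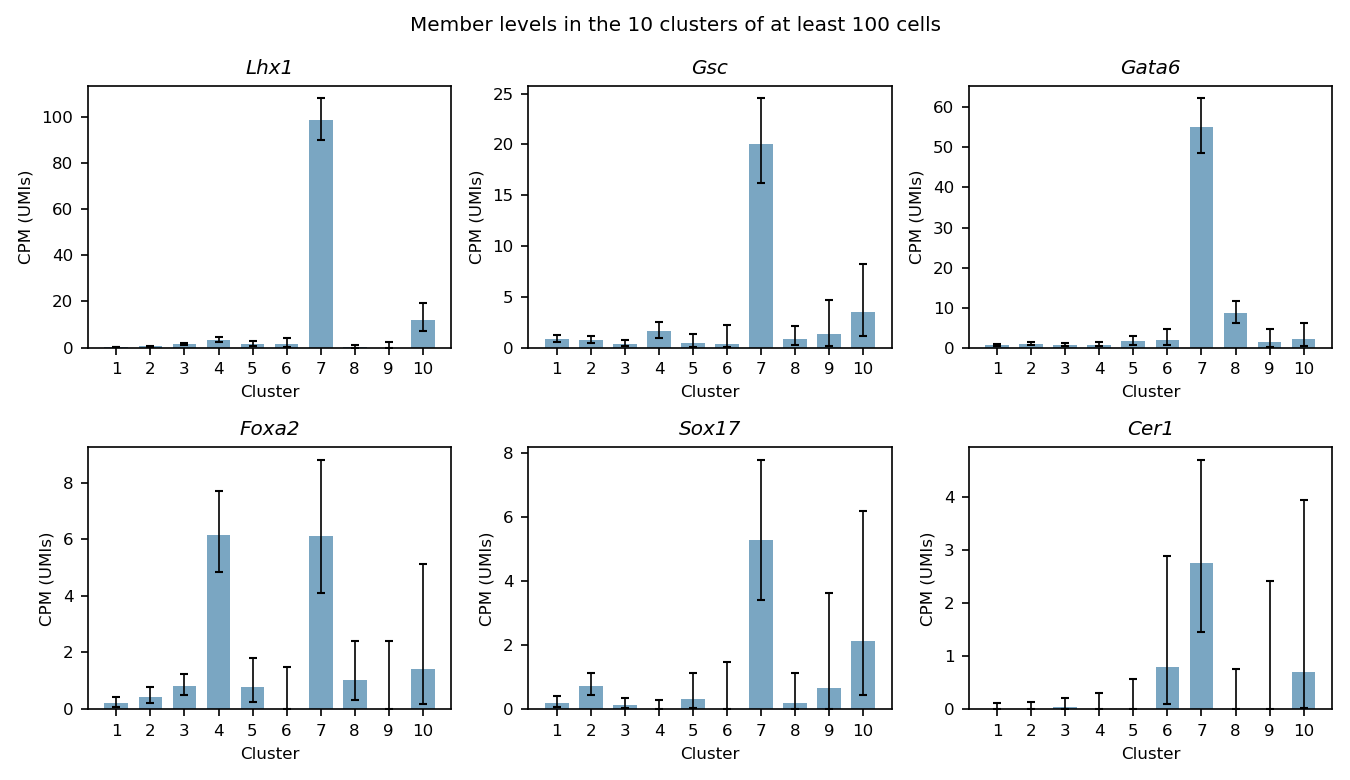
Level of each gene (CPM of summed UMIs, linear axis) in the 10 clusters with at least 100 cells; bars are levels and lines are exact Poisson 95% intervals, which cover counting error only. Lhx1, Gsc and Gata6 stand highest in cluster 7 (98.7, 20.1 and 55.1 CPM), whereas Foxa2 is as high in cluster 4 (6.14 CPM) as in cluster 7 (6.13 CPM).

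Shares of cells were compared after each cell was reduced at random to 2000 UMIs, since depth differs between clusters. Lhx1 was found in 13.0% of streak and mesoderm-like cells (10.6 to 15.7%, 25.6% before thinning) and Gata6 in 10.8% (8.58 to 13.4%, 25.8% before). Gsc was found in 3.65% (70 cells before), Foxa2 and Sox17 each in 0.876% (21 and 11 cells before) and Cer1 in 0.438% (7 cells before). Fibroblast-like cells (cluster 8), a type without a streak programme, give a background for the genes other than Gata6. Gata6 was itself above its droplet level in them, and in clusters 1 to 5 it was found in 0.0671 to 0.233% of thinned cells.
In fibroblast-like cells, 0.171% of thinned cells had Lhx1, 1.71% had Gata6, and 0 of 585 had Gsc, which allows a share of up to 0.513%. Foxa2 and Sox17 were each found in 0.171% of fibroblast-like cells and Cer1 in 0 of 585. The median depth was 5803 UMIs in streak and mesoderm-like cells and 6895 in fibroblast-like cells.

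Of 30 measured genes of Nodal signalling and the organiser, 6 were higher and 2 lower in this cluster, where 1.37% of all genes were lower. Their median log2 ratio was 0.71, against 0.01 over all genes. Mixl1 and Eomes are among the higher ones by the choice of the cluster. The higher ones were Mixl1 (a homeodomain factor of the streak, 90.2 against 0.833 CPM), Dkk1 (a Wnt antagonist, 28.7 against 0.472 CPM), Eomes (a T-box factor needed for endoderm and mesoderm, 190 against 12.2 CPM), Sp5 (a Wnt target), Hhex (a homeodomain factor of anterior endoderm and of blood vessel precursors, 23.2 against 5.72 CPM) and Acvr2a (an activin receptor). The lower ones were Pcsk6, which processes Nodal, and Gdf3, a ligand of the same family. Nodal itself was at 20.5 CPM, against 32.9 CPM in other cells, and its coreceptor Tdgf1 was at 246 CPM, against 261 CPM. Among 14 definitive endoderm markers 3 were higher (Gata4, Krt19 and Hhex) and 3 lower (Cldn6, Epcam and St14), with a median log2 ratio of -0.48. Among 20 visceral and primitive endoderm markers 4 were higher (Gata4, Col4a1, Col4a2 and Pdgfra) and 1 lower (Apoe), with a median log2 ratio of -0.01, and 6 had 0 UMIs, Afp and Ttr among them. Among 8 parietal endoderm markers Col4a1 and Col4a2 were higher and none was lower, with a median of 1.02.

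Clustering the 699 cells again, also without the 6 genes, gave 6 sub-clusters, and the genes divided between them. Lhx1 and Gata6 were highest in sub-cluster 3, a group of 134 cells with Plxna4, Mesp1 and Mixl1 among its 10 leading genes. The intervals of Gata6 in sub-clusters 3 and 5 overlap, and Gsc did not differ beyond counting error between sub-clusters 3 and 6. With called doublets included, Foxa2, Sox17 and Cer1 were highest in sub-cluster 6. This was a group of 59 cells led by Tafa1, Ralyl and Shh, with Lmx1a and Foxd1 also among its 10 leading genes. Sub-cluster 5, with 76 cells and Cdh5, Sox7 and Gata2 among its 10 leading genes, held most of the remaining Sox17. Without called doublets the order of Sox17 was the other way. It was at 15.3 CPM (5.62 to 33.3) in sub-cluster 5 and 7.82 CPM (0.947 to 28.3) in sub-cluster 6, intervals that overlap.
Sub-cluster 4 had a median of 12452 UMIs per cell, 88.8% called doublets and naive pluripotency genes, and its levels are not described further. The other called doublet shares ran between 1.49% (sub-cluster 3) and 22.0% (sub-cluster 6).

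**Figure D2:**
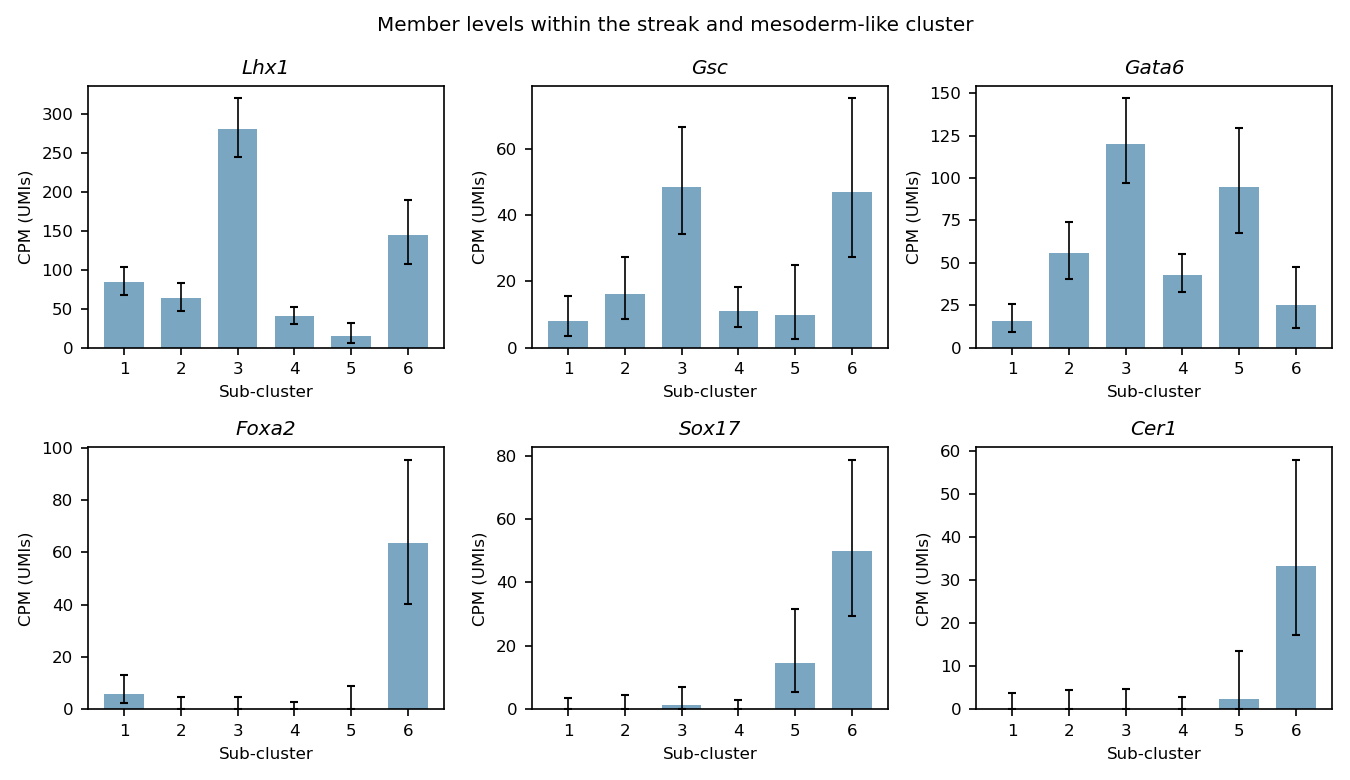
Level of each gene (CPM of summed UMIs, linear axis, scale set per panel) in the 6 sub-clusters of the streak and mesoderm-like cluster, with exact Poisson 95% intervals. Lhx1 reaches 280 CPM in sub-cluster 3, whereas Foxa2, Sox17 and Cer1 reach 63.6, 49.8 and 33.2 CPM in sub-cluster 6, called doublets included.

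In sub-cluster 3, Lhx1 had 219 UMIs in 64 of 134 cells, a level of 280 CPM (244 to 319), against 62.8 CPM in the other streak and mesoderm-like cells. Gata6 had 94 UMIs in 56 cells and was at 120 CPM (97.0 to 147), against 42.3 CPM. Gsc had 38 UMIs in 28 cells and was at 48.5 CPM (34.4 to 66.6), against 14.4 CPM. So 3 of the 6 genes were higher there, and 0.692% of all genes were, while the median log2 ratio of the 6 was -0.08.
Foxa2 and Cer1 had 0 UMIs in sub-cluster 3, which allows up to 3.83 CPM, and Sox17 had 1 UMI. Without called doublets Lhx1 was at 284 CPM, Gata6 at 122 CPM and Gsc at 49.3 CPM there. After thinning, 32.8% of its cells had Lhx1, 20.3% Gata6 and 8.59% Gsc.
Of the 30 Nodal and organiser genes, 4 were higher and 3 lower in sub-cluster 3, where 1.09% of all genes were lower, with a median log2 ratio of 0.21, against 0.01 over all genes. Mixl1 was at 253 CPM, against 58.0 CPM, Eomes at 425 CPM, against 143 CPM, and Tdgf1 at 517 CPM, against 193 CPM, and Dkk1 was the fourth. The lower ones were Nodal, Lefty1 (a Nodal antagonist, 38.3 against 220 CPM) and Fst (follistatin, an activin antagonist). Mesp1, a factor of nascent and cardiac mesoderm, was at 301 CPM, against 68.1 CPM. The organiser and notochord genes Shh, Foxa1 and Chrd had 0 UMIs in these cells.

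Sub-cluster 5 was haematoendothelial-like. Of 16 blood and vessel markers 9 were higher there, where 1.04% of all genes were, with Cdh5 (VE-cadherin) at 58.3 CPM, against 0.925 CPM, and Tal1 at 131 CPM, against 9.26 CPM. The median log2 ratio of these markers was 3.02, against -0.11 over all genes. Sox17 had 6 UMIs in 5 of the 76 cells and was at 14.6 CPM (5.34 to 31.7), against 4.40 CPM. With called doublets left out on both sides, Sox17 was at 15.3 CPM, against 1.07 CPM. Gata6 was at 94.7 CPM (67.3 to 129), against 51.4 CPM, a 1.83-fold difference under the 2-fold limit.
Lhx1 was lower in sub-cluster 5, at 14.6 CPM (5.34 to 31.7), against 107 CPM, and Gsc was lower with 4 UMIs, at 9.71 CPM, against 21.1 CPM. So 2 of the 6 genes were lower there, and 2.19% of all genes were. Of the Nodal and organiser genes 9 were lower, among them Otx2 with 0 UMIs, with a median log2 ratio of -1.25, and 1 was higher, Hhex, at 148 CPM, against 11.3 CPM.
Sub-cluster 2, with 136 cells and the lateral mesoderm genes Foxf1, Hand1 and Msx2 among its 10 leading genes, had Gata6 at 55.5 CPM (40.5 to 74.3) and Lhx1 at 63.0 CPM (46.9 to 82.8), with no UMI of Foxa2, Sox17 or Cer1. Sub-cluster 1, with 187 cells and Igfbp3, Cdx2 and Fst among its 10 leading genes, had Lhx1 at 83.7 CPM, Gata6 at 15.8 CPM, Gsc at 7.88 CPM and 6 UMIs of Foxa2.

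Sub-cluster 6, called the Shh sub-cluster here, held 23 of the 29 Foxa2 UMIs of the streak and mesoderm-like cluster, 18 of the 25 Sox17 UMIs and 12 of the 13 Cer1 UMIs, in 59 cells. Foxa2 was at 63.6 CPM (40.3 to 95.4), against 1.37 CPM in the other cells of the cluster. Sox17 was at 49.8 CPM (29.5 to 78.7), against 1.60 CPM, and Cer1 was at 33.2 CPM (17.1 to 58.0), against 0.229 CPM.
Gsc was at 47.0 CPM (27.4 to 75.3), against 17.8 CPM, and Gata6 was lower, at 24.9 CPM (11.4 to 47.2), against 57.6 CPM. Lhx1 was at 144 CPM (107 to 189), against 94.9 CPM. So 4 of the 6 genes were higher and 1 lower, and 2.71% of all genes were higher and 1.25% lower. The median log2 ratio of the 6 was 2.82, against 0.06 over all genes.
This count rested on called doublets, which made up 13 of the 59 cells. Without them on either side, 1 of the 6 genes was higher, Foxa2, at 70.4 CPM (41.7 to 111), against 1.70 CPM. Gsc was then at 27.4 CPM, against 21.1 CPM, Cer1 at 15.7 CPM, against 0.340 CPM, and Sox17 at 7.82 CPM, against 2.38 CPM, with the 4 Cer1 UMIs in 1 cell and the 2 Sox17 UMIs in the same cell.

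The Shh sub-cluster carried genes of the node and notochord. It was picked for the highest Shh level among the sub-clusters, so Shh was high there by that choice. Of 9 node and notochord markers 5 were higher: Shh (sonic hedgehog, 169 against 0.229 CPM), Foxa1 (130 against 1.60 CPM), Chrd (chordin, a BMP antagonist, 38.7 against 0.686 CPM), Nog (noggin, likewise, 74.7 against 8.92 CPM) and T (brachyury, 456 against 99.5 CPM). A single cell of 29618 UMIs, not a called doublet, held 28 of the 61 Shh UMIs, and without it Shh was at 99.4 CPM (68.4 to 140). Noto, a homeodomain factor of the node, had 3 UMIs. The median log2 ratio of the list was 2.93, against 0.06 over all genes. Of 14 definitive endoderm markers 5 were higher (Foxa1, Spink1, Trh, Cldn6 and Krt19) and 1 lower (Gata4), with a median of 0.48. Of the 15 Spink1 and 20 Cldn6 UMIs, 14 and 16 lay in the 8 cells with Sox17 or Cer1. These cells, 7 of them called doublets, held 35 of 115 Trh UMIs and 6 of 47 Foxa1 UMIs. Of 20 visceral and primitive endoderm markers none was higher, 2 were lower and 11 had 0 UMIs, Afp, Ttr and Sox7 among them, and the median was -0.41. Of the 30 Nodal and organiser genes 6 were higher (Shh, Chrd, Nog, Sp5, Lefty1 and Otx2) and 2 lower (Eomes, 36.0 against 203 CPM, and Mixl1, 30.4 against 95.2 CPM), with a median of 0.23. The sub-cluster also had 4 of 12 neuroectoderm markers higher, among them Pax3 (44.2 against 3.66 CPM) and Fabp7 (52.5 against 11.9 CPM), with a median of 0.59, and was given no cell type name.
Its cells also differed in their tags. The median cell of the Shh sub-cluster had 5424 UMIs of tag CMO311 and 316 of tag CMO312, whereas the medians of sub-clusters 1 to 5 lay between 2102 and 3286.5 UMIs for CMO312. Since the tags match no sample label, their part in the difference was not tested.

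Within the Shh sub-cluster, cells with Sox17 or Cer1 and cells with Foxa2 alone of these 3 carried other genes, a split made after the values were seen. The 8 cells with Sox17 or Cer1 held 47 UMIs of Flt1 (a VEGF receptor), 16 of Cldn6, 14 of Spink1 and 9 of Hhex, and 5 of the 8 had a Foxa2 UMI. Flt1 was at 727 CPM (534 to 966) in them, against 71.9 CPM in the 10 cells with Foxa2 alone and 23.4 CPM in the 41 cells with none. A single called doublet held 30 of the 47 Flt1 UMIs, and without it Flt1 was at 348 CPM (203 to 557), while 6 UMIs of Spink1 remained. Cldn6 was at 247 CPM (141 to 402), against 24.0 and 9.37 CPM, and at 225 CPM without that doublet.
The 10 cells with Foxa2 alone all had T, at 659 CPM (497 to 858), against 92.7 CPM in cells with Sox17 or Cer1 and 487 CPM in cells with none. Shh was at 467 CPM (332 to 639) in the cells with Foxa2 alone, from 39 UMIs in 4 cells, against 15.5 CPM with Sox17 or Cer1 (1 UMI) and 98.4 CPM with none. The cell of 29618 UMIs held 28 of these 39 Shh UMIs and 27 of the 55 T UMIs. Without it, Shh was at 204 CPM (102 to 366) and T at 520 CPM (346 to 752) in the cells with Foxa2 alone, and both intervals then overlap those of the cells with none. Nog was at 156 CPM (83.0 to 266) with Foxa2 alone, against 0 UMIs with Sox17 or Cer1. In cells with none it was at 65.6 CPM (35.8 to 110), an interval that overlaps that of Foxa2 alone. The cell of 29618 UMIs held 6 of the 13 Nog UMIs with Foxa2 alone, and without it Nog was at 130 CPM (52.3 to 268). Lefty1 was high in both, at 881 CPM with Sox17 or Cer1 and 683 CPM with Foxa2 alone, against 225 CPM with none. Of the 8 cells with Sox17 or Cer1, 7 were called doublets, against 0 of the 10 with Foxa2 alone, and their median depth was 7015.5 UMIs, against 5869 UMIs. The part of doublets in these differences was not tested.

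**Figure D3:**
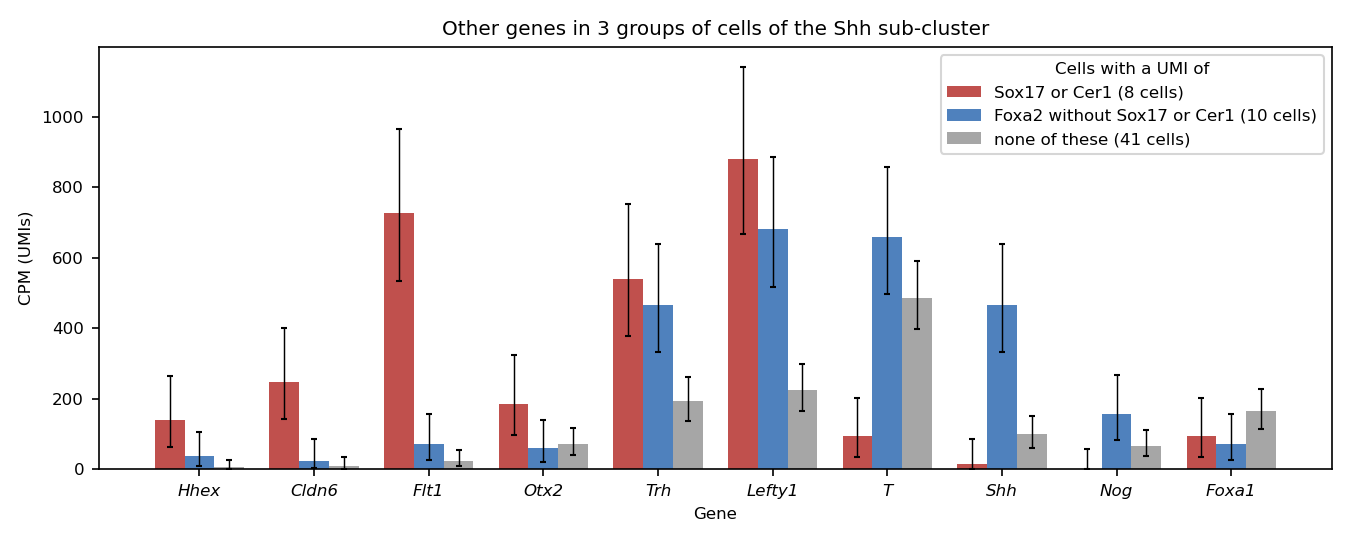
Level of 10 other genes (CPM of summed UMIs, linear axis) in 3 groups of cells of the Shh sub-cluster, with exact Poisson 95% intervals; the groups were formed after the values were seen, and 7 of the 8 cells with Sox17 or Cer1 were called doublets. Flt1, Cldn6 and Hhex stand highest in cells with Sox17 or Cer1, and Shh and Nog in cells with Foxa2 alone, where 1 cell held 28 of 39 Shh UMIs. The Nog interval there overlaps that of the cells with none, and the Hhex interval with Sox17 or Cer1 overlaps that with Foxa2 alone.

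At least 2 of the 6 genes were found together in 121 cells (0.718% of kept cells), of which 105 (86.8%, 79.4 to 92.3%) lay in the streak and mesoderm-like cluster. Of the 699 cells of the cluster 105 had at least 2, a share between 12.4 and 17.9%, against 0.0991% of all other kept cells. After thinning to 2000 UMIs, 30 of 16547 cells had at least 2 of the genes, 27 of them in the cluster. In sub-cluster 3, 30.6% of cells had at least 2 before thinning, in the Shh sub-cluster 23.7% and in sub-cluster 1 4.81%.
The pairs within the cluster divided as the sub-clusters did. Gsc was found in 36 of 179 cells with Lhx1 (20.1%, 14.5 to 26.7%), against 34 of 520 without it (6.54%, 4.57 to 9.02%). Gata6 was found in 40.2% of cells with Lhx1 (33.0 to 47.8%), against 20.8% of those without (17.4 to 24.5%). Gata6 was also found in 28 of 70 cells with Gsc (40.0%), against 24.2% of those without.
Gata6 was found in 3 of 21 cells with Foxa2 (14.3%, 3.05 to 36.3%), against 26.1% of those without (22.8 to 29.6%), intervals that overlap. Sox17 and Cer1 were each found in 4 of the 21 cells with Foxa2, against 7 and 3 of the 678 without. For both genes, all but 1 of these 4 cells were called doublets, and the 1 left was the same cell, of 6204 UMIs. Cells with Lhx1 had a median of 6639 UMIs, against 5640 in cells without it, and cells with Foxa2 5478, against 5809.5, so detection of a second gene was not set at equal depth. Among cells with Lhx1 21.2% were called doublets, against 18.8% of those without.

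**Figure D4:**
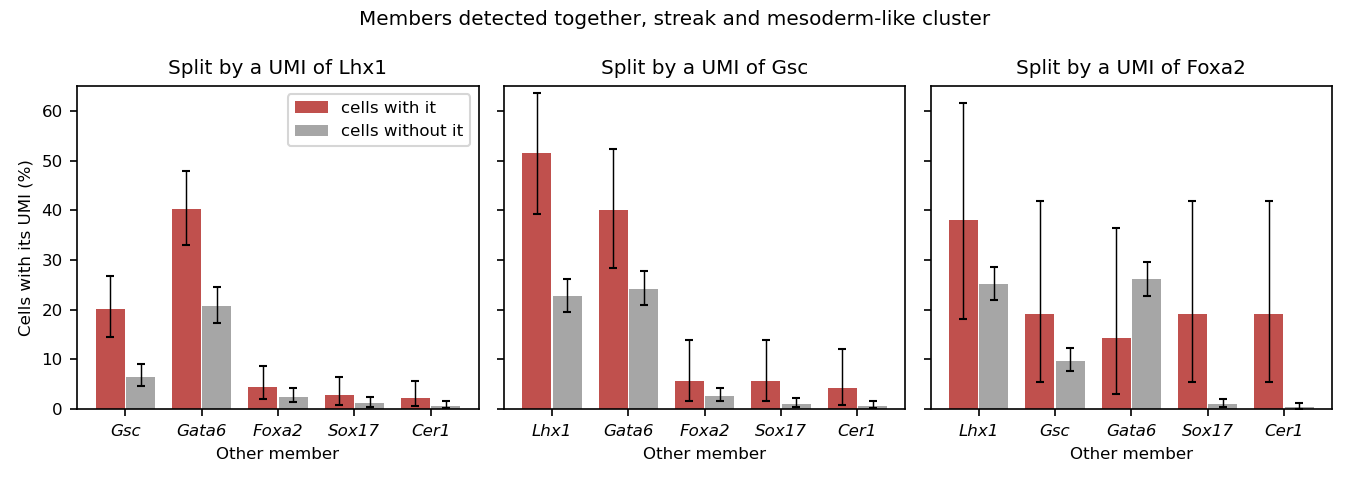
Share of streak and mesoderm-like cells with a UMI of each other gene (%, linear axis), for cells with and without Lhx1, Gsc or Foxa2, unthinned, with exact binomial 95% intervals. Gsc was found in 20.1% of cells with Lhx1 and 6.54% of cells without it, and Sox17 in 4 of 21 cells with Foxa2 and 7 of 678 cells without it. All but 1 of these 4 cells were called doublets.

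At least 3 of the genes were found in 28 cells, listed one by one after the values were seen, and 26 of them lay in the streak and mesoderm-like cluster. Lhx1 was present in every one of them and Gsc in 26. The largest group was 19 cells, 4 of them called doublets, with Lhx1, Gsc and Gata6 and none of the other 3 genes. No cell had all 6 genes, and 5 cells had 5 of them.
Of these 5 cells, 4 lay in the Shh sub-cluster, 3 of which were called doublets, and the other lay in cluster 10, the two-cell-like cluster. The cell with 5 genes in the Shh sub-cluster that was not a called doublet had 3 UMIs of Lhx1, 2 of Foxa2, 3 of Gsc, 2 of Sox17 and 4 of Cer1 among 6204. A single cell of cluster 4, also not called, had 10 UMIs of Foxa2 and 6 of Lhx1 among 7984. Of the 10 cells with a Cer1 UMI in the whole library, 6 were called doublets.

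**Figure D5:**
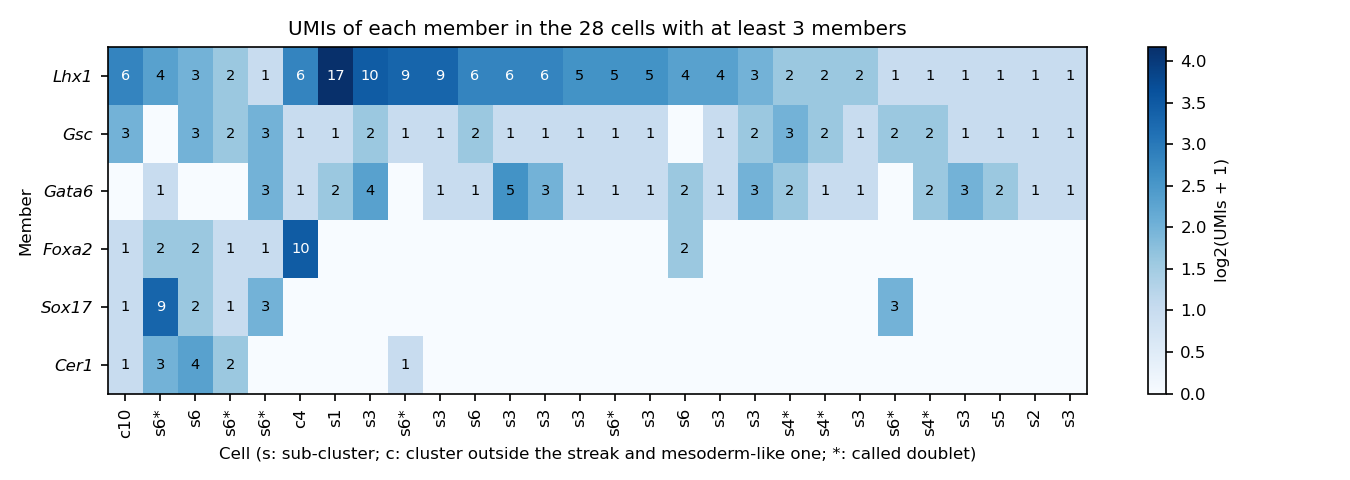
UMIs of each gene in the 28 cells with at least 3 of the 6 genes, 1 column per cell, coloured by log2(UMIs + 1) with the UMI number printed in the cell; labels give the sub-cluster (s) or the cluster outside the streak and mesoderm-like one (c), and * marks a called doublet. Lhx1 is present in all 28 columns, and Foxa2, Sox17 and Cer1 lie mainly in columns of sub-cluster 6.

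Foxa2 had the smallest share of its UMIs in the streak and mesoderm-like cluster, and Sox17 too had most of its UMIs outside it. Cluster 4, with 1737 cells, was led by Meis2 (a TALE homeodomain factor, 387 against 21.2 CPM) and Fgf8 and had T among its higher genes. It held 76 of the 157 Foxa2 UMIs (48.4%) in 51 cells, at 6.14 CPM (4.84 to 7.69), against 0.745 CPM in all other kept cells. None of the 6 genes was higher there by the 20 CPM limit, and 0.953% of all genes were. After thinning, 1.05% of its cells had Foxa2 (0.622 to 1.65%), close to the 0.876% (0.322 to 1.90%) of the streak and mesoderm-like cluster.
Of 15 streak markers 6 were higher in cluster 4 and none lower, whereas 1.16% of all genes were lower. Their median log2 ratio was 1.01, against 0.01 over all genes. Of 12 neuroectoderm markers 5 were higher (Meis2, Fabp7, Sox1, Crabp2 and Sox3) and none lower, with a median of 1.81, and the cluster was given no cell type name. In that cluster, cells with Foxa2 had T at 384 CPM (325 to 450), against 97.0 CPM in cells without it, and Ptch1, a hedgehog receptor and target, at 110 CPM (80.2 to 148), against 31.9 CPM. Lhx1 was at 30.1 CPM (15.6 to 52.6), from 12 UMIs of which 6 came from the 1 cell above, against 2.42 CPM, and without that cell it was at 15.4 CPM, under the 20 CPM limit. Trim67, Igfbp3 and Bicc1 completed the 5 genes with the highest fold.
Of 9 node and notochord markers 2 were higher in Foxa2 cells of cluster 4, Chrd (27.6 against 1.34 CPM) and T, and 0.633% of all genes were. The median log2 ratio of the markers was 1.55, against 0.01 over all genes. Noto had 3 UMIs in cells with Foxa2 and 0 in cells without it. Shh had 1 UMI and Foxa1 0 UMIs in cells with Foxa2. Of the 12 neuroectoderm markers Fabp7 and Crabp2 were lower in cells with Foxa2 and none was higher, where 0.499% of all genes were lower. No definitive endoderm marker of 14 was higher or lower, their median was -0.42, and 7 had 0 UMIs in cells with Foxa2.
In the streak and mesoderm-like cluster, cells with Foxa2 had 4 of the 9 markers higher, and 2.75% of all genes were. The median of the markers was 1.89, against -0.10 over all genes. Shh was at 255 CPM (182 to 347), against 4.81 CPM in cells without Foxa2, from 40 UMIs in 5 cells. Without the cell of 29618 UMIs it was at 94.1 CPM (48.6 to 164), Nog at 54.9 CPM and T at 322 CPM. Foxa1 was at 63.6 CPM, against 9.61 CPM, Nog at 82.7 CPM, against 11.6 CPM, and T at 433 CPM, against 116 CPM. Cells with Foxa2 thus had T high in both clusters, and Shh in the streak and mesoderm-like one, where it was also higher without the cell of 29618 UMIs. In that cluster 15 of the 21 cells with Foxa2 lay in the Shh sub-cluster, which was picked for its Shh level and also had T higher. Within the Shh sub-cluster, the Shh and T intervals of cells with Foxa2 alone overlapped those of cells with none once the cell of 29618 UMIs was left out.

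Lhx1 was also found in 6 of the 29 cells of cluster 12, which had 8 of 8 neuron markers higher, such as Dcx and Tubb3. It had 15 UMIs there and was at 142 CPM (79.3 to 234), against 4.96 CPM in all other kept cells. Without the 1 cell with 6 of these UMIs it was at 92.6 CPM (42.3 to 176). It was the only one of the 6 genes with a UMI in these cells and the only one higher, and 6.43% of all genes were. A count of 0 in this small cluster allows up to 28.3 CPM for the others. Cluster 10 had 17 Lhx1 UMIs in 7 cells, with an interval of 7.01 to 19.3 CPM.
Gata6 had 42 UMIs in 35 of 593 fibroblast-like cells, at 8.62 CPM (6.21 to 11.6), against 3.05 CPM in all other kept cells. In that cluster, cells with Gata6 had Ctla2a at 546 CPM, against 34.3 CPM in cells without it, and Hand2, a bHLH factor of heart and lateral mesoderm, at 65.3 CPM, against 13.6 CPM, and at 35.0 CPM without the 1 cell that held 12 of its 25 UMIs. Sox17 had 20 UMIs in 20 cells of cluster 2, a cluster of primed epiblast genes such as Fgf5, where its level of 0.731 CPM (0.447 to 1.13) lay within counting error of the 0.576 CPM of cell-free droplets (0.264 to 1.09). None of the 6 genes had a UMI in the 78 cells with macrophage genes.
The order of the clusters with at least 100 cells put cluster 7 highest for every gene but Foxa2, whose levels in clusters 4 and 7 did not differ beyond counting error. The intervals of Sox17 and Cer1 in cluster 7 (3.42 to 7.80 and 1.46 to 4.70 CPM) overlap those of other clusters. In cluster 10 they were 0.438 to 6.21 CPM for Sox17 and 0.0179 to 3.94 CPM for Cer1. For Lhx1 the next was cluster 10, then cluster 4 at 3.31 CPM (2.38 to 4.50). For Gata6 the next was the fibroblast-like cluster, and for Gsc cluster 10 at 3.54 CPM (1.15 to 8.26), whose interval overlaps that of cluster 4 at 1.62 CPM (0.988 to 2.50). Naive cells (cluster 1) had 6 Lhx1 UMIs and no Cer1 UMI in 4509 cells.

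Cells with a UMI of a gene were set against all kept cells without one, and the 5 genes with the highest fold are named for each gene with at least 30 such cells. Cells with Lhx1 were led by Mesp1 (158 against 2.04 CPM), Cyp26a1 (a retinoic acid degrading enzyme, 122 against 4.42 CPM), Prdm6, Fgf10 (a growth factor) and Mixl1. The same 5 genes led cells with Gsc, Mixl1 first at 82.0 CPM, against 3.44 CPM. Prdm6, Fgf10, Cyp26a1 and Mesp1 also led cells with Gata6, together with Kdr (a VEGF receptor of vessel precursors, 65.7 against 1.98 CPM).
Cells with Foxa2 were led by T (242 against 18.6 CPM), Flt1, Slit2, Rbfox1 and Fgf8 (386 against 66.0 CPM), and cells with Sox17 by Flt1 (174 against 7.93 CPM), Cpne5, Marchf1, Gng11 and Ramp2. Without the doublet with 30 Flt1 UMIs, Flt1 was at 96.6 CPM in cells with Sox17 and at 48.3 CPM in cells with Foxa2. Since most cells with Lhx1, Gsc or Gata6 lie in the streak and mesoderm-like cluster, these genes largely describe that cluster.
Within the cluster, cells with Lhx1 still had Mesp1 at 260 CPM, against 47.7 CPM in cells without it, and Otx2, a homeodomain factor of the epiblast and anterior embryo, at 85.8 CPM, against 25.5 CPM. Cells with Gsc also had Otx2 higher, at 109 CPM, against 33.8 CPM. Cells with Gata6 had Kdr at 117 CPM, against 55.6 CPM, Etv2, a factor of blood and vessel precursors, at 71.7 CPM, against 35.2 CPM, and Hand1 at 124 CPM, against 61.3 CPM. Cells with Sox17 had Flt1 at 696 CPM, against 16.5 CPM, from 54 UMIs in 9 of 11 cells, and at 389 CPM (249 to 578) without that doublet.

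Across 28 finer clusters of at least 50 cells, the likeness of 2 genes was Pearson's r of log2(CPM + 1), a description over clusters of 1 library that share its depth and background. The genes most like Lhx1 were Cyp26a1 (r 0.88), Peg3 and Limch1. Those most like Gsc were Cyp26a1 (0.94), Mesp1 and Prdm6, and those most like Gata6 were Fgf10 (0.90), Bmp2 and Tiam2.
Hotairm1 and Car3 were among the 3 genes most like Foxa2 (0.83 each). Sox17 was most like Mesp1 (0.81), Sprr2a3 and Cyp26a1, and Cer1 like Sprr2a3 (0.78), Hoxaas3 and Mesp1. Among the 6 genes themselves, Lhx1 and Gsc were most alike (0.82) and Foxa2 and Gata6 least (0.16).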

How the data were processed

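Cells of 2 mouse samples (day 2 embryoid bodies; epiblast stem cells) were profiled with droplet 3' RNA sequencing. The authors deposited raw UMI counts from Cell Ranger 8.0.1, per the file headers, and a table that lists called cells with a tag call. The submitters' processing notes also name Seurat. The genome build of the counts is not given in the sources used here. Tags CMO311 and CMO312 match no sample label, so the matrix was used as 1 pooled sample, without tests.

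Called cells with fewer than 1000 genes or over 10% mitochondrial UMIs were left out. Clusters came from scanpy 1.11.5 (Leiden, resolution 0.5, 2000 variable genes, 30 components, 15 neighbours, without the 6 genes and cell cycle genes), and sub-clusters from 1000 variable genes and 20 components. Folds add 1 CPM to both sides. Thinning to 2000 UMIs left out 294 cells. A count of 0 allows 3 counts. The expected doublet rate was 0.1. Free RNA was subtracted in 1 alternative only. The fold computation was tested on simulated data.

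The 6 genes and the gene lists were chosen with earlier results of these data known. Named genes are the 6 genes, the 5 other genes of highest fold in cells with each (at least 30 cells; at least 20 UMIs, 50 CPM and 10% of the cells), the 3 most alike, and up to 4 called members per list, largest ratio first. Other names, such as Noto, Nodal, Pcsk6, Krt19, Mesp1 beside sub-cluster 3 and the genes of the split Shh sub-cluster, were chosen after their values were seen. Promoters came from RefSeq; that of Sox17 was not used here. A gene that this rule would name is not reported here.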

Additional observations from a re-analysis of the deposited data

Results flagged for a closer look

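The cell tags were not used in any comparison above, but their UMIs in sub-clusters of the streak and mesoderm-like cluster exceeded the cell-free droplets. The 90th percentile of droplets was 1228 UMIs for CMO311 and 478 for CMO312. Median CMO312 UMIs were above it in sub-clusters 1 (2383), 2 (3241.5), 3 (3286.5), 4 (2757) and 5 (2102), whereas the Shh sub-cluster had 316. Median CMO311 UMIs were above it in the Shh sub-cluster (5424) and in sub-cluster 4 (1326), which holds mostly called doublets. The tags match no sample label.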

How the results depend on the processing

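Of the main results under the other settings, 33 values stayed within their limits and 4 moved. These results are counts and shares, which have no direction to reverse. Some of the 33 could not have moved. The share of kept cells with at least 2 of the genes does not use the clusters, so changes of the clustering alone left it at 0.181%. A count of 2 genes against 3 was taken as within the limits. Without the minimum of 20 CPM, 6 of the genes were at least 2-fold higher in the streak and mesoderm-like cluster, against 3 with it. The share of cells with at least 2 of the genes was 0.181% at 2000 UMIs per cell, 0.495% at 4000 UMIs and 0.718% unthinned. With called doublets left out, a setting added after seeing the data, 1 gene and not 4 was higher in the Shh sub-cluster. The lenient cell filter, the clustering with the 6 genes kept in and another clustering seed each gave 2 higher genes in the streak and mesoderm-like cluster, since Gsc fell under 20 CPM. The log2 ratio in that cluster ranged between 4.05 and 6.17 for Lhx1, 3.29 and 5.45 for Gata6, 2.11 and 4.49 for Gsc, 0.95 and 3.72 for Sox17, 0.87 and 2.59 for Foxa2 and 0.34 and 4.40 for Cer1. Of the values of single genes, 65 stayed and 25 moved. The 65 include the log2 ratios without the CPM minimum, which are the main ones by construction. No paired analysis was possible because there is 1 pooled sample with no replicate numbers. Depth limits Cer1 (17 UMIs), Sox17 and every group under 30 cells, and called doublets and free RNA remain in the values.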
